A study of Homo sapiens with 2 samples.

Results

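Expression of 8 genes for liver-enriched transcription factors was followed in HK-2 cells, an immortalised proximal tubule line of human kidney. The genes were FOXA1, FOXA2 and FOXA3, CEBPA, CEBPB and CEBPD, ONECUT2 and CREB3L3. They were taken from 58302 genes of the count tables by symbol, and all 8 had a count in at least 1 library. Per the labels, an adenovirus brought in the coding sequence of Bmal1, a circadian clock transcription factor, or green fluorescent protein as control, and infection lasted 24 h. Each group had a single library, Ad-Bmal1 with 20051735 counts and Ad-GFP with 20032652 counts, and both were grown in medium with 10% serum. The labels gloss the line name as human kidney 3 for Ad-Bmal1 and human kidney 2 for Ad-GFP; a single line was assumed, and its identity was not tested. The series title names cisplatin, but neither library was labelled as treated with it.

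Each difference therefore describes 2 libraries, has no replicate check and carries no p-value. Ratios are Ad-Bmal1 over Ad-GFP, of CPM (counts relative to the size of the library) after scaling for library composition, with exact 95% binomial intervals that cover counting error only. Genes at 1 CPM or more in either library count as measured. The size rule asks for a measured gene, a 2-fold or larger difference and an interval without 1. BMAL1 itself went against its label, with 133 counts in the library labelled Ad-Bmal1 and 204 in the library labelled Ad-GFP (ratio 0.667, 0.532 to 0.834). Counts per gene do not separate vector transcripts from those of the cell. Every direction below is that of the labels. Were the labels exchanged every ratio would be inverted, and these counts cannot tell whether they were. Of 16 kidney tubule markers 7 were measured. PAX8 and KRT8 were abundant in both libraries, while LRP2, SLC22A6 and EMX2 were at 0. Of 7 blood cell markers 1 was measured, CSF1R with 407 counts in the library labelled Ad-Bmal1 and 433 in the library labelled Ad-GFP, and 4, PTPRC among them, were at 0 in both. Of 6 fibroblast markers 4 were measured, and the 6 summed to 1988 and 1603 counts in the same order, most of them COL1A1 with 1681 and 1285. The 5 endothelial markers summed to 5 and 3 counts in the libraries labelled Ad-Bmal1 and Ad-GFP.

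FOXA proteins are forkhead factors that open compacted chromatin at liver enhancers, and C/EBP proteins are leucine zipper factors that bind as dimers. CEBPA maintains the differentiated, non-dividing hepatocyte. CEBPB and CEBPD carry the acute-phase response to interleukin-6 and are also induced in many other cells under stress. ONECUT2 is a cut homeobox factor of liver, bile duct and pancreas development. CREB3L3 is a membrane-bound factor of liver and intestine that is cut free by Golgi proteases and switches on genes of lipid metabolism and fasting. None of these factors is confined to liver, and several act in other epithelia.

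Promoter windows of 6 members were matched in RefSeq (GRCh38.p14). FOXA2 and CEBPD were not among them, and CEBPB had 2 windows. The stretches below are the 250 bases before the RefSeq start, 5′ to 3′ on the gene's strand. They are shown for ONECUT2, the member with the largest ratio, and for the 3 members whose windows hold the TATA box letters TATAAA, which are in capitals.
ONECUT2, chr18:57435124-57435373, plus strand: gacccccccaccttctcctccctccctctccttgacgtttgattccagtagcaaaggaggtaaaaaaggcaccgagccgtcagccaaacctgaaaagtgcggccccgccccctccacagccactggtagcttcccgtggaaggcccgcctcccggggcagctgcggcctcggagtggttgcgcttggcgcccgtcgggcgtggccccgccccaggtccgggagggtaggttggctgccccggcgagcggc
CEBPB, chr20:50190580-50190829, plus strand: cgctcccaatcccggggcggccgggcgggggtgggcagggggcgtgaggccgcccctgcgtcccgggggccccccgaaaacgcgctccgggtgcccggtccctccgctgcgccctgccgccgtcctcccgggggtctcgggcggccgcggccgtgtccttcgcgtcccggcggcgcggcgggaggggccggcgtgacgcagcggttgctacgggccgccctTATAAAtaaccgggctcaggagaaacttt
CEBPA, chr19:33302535-33302784, minus strand: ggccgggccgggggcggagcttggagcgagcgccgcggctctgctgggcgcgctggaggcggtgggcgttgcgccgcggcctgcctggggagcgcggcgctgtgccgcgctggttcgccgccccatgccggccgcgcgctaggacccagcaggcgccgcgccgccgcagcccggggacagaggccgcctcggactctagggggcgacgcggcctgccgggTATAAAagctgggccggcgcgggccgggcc
FOXA3, chr19:45864076-45864325, plus strand: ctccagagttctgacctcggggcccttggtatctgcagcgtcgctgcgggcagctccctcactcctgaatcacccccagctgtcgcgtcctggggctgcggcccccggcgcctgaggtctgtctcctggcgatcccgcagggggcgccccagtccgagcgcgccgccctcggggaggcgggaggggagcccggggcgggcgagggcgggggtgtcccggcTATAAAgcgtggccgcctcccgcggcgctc
In these windows, counted back from the start, TATAAA began at -29 in CEBPB and at -30 in CEBPA and FOXA3. It was searched after the sequences had been read, and 11.5% of all 35116 promoter windows of 300 bases hold it on either strand. Gene positions given below are from GENCODE, whose starts differ from those of RefSeq. By them the FOXA3 window lies inside its gene, the CEBPB and CEBPA windows shown end inside theirs, and that of ONECUT2 ends before its gene.

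No member window held the E-box CACGTG, to which CLOCK and BMAL1 bind, and 7.26% of all windows do. The E-box variants CACGTT and CATGTG were absent too, against 5.34% and 11.1% of all windows. The D-box TTATGTAA, the C/EBP letters TTGCGCAA and TTNCNNAA, of which the first is contained in the second, and the forkhead letters TGTTTAC and TATTTAC were also absent from the 7 member windows. All windows hold them at 0.886%, 0.151%, 36.8%, 3.42% and 2.67%, on either strand. Over the 250 bases before the start, the 7 member windows were 56.0% (CREB3L3) to 81.2% (CEBPA) G and C, against a median of 58.0% over all windows. Absence says only that these letters are not within this window.

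Of the 8 factors 6 were measured, each at 1 CPM or more in both libraries. The size rule picked 1 of them, higher in the library labelled Ad-Bmal1, and none lower. Over all 13231 measured genes it picked 1.13% as higher, 1.74% as lower and 2.86% in either direction. The median log2 ratio of the 6 was -0.09, against 0.00 for all measured genes. Intervals lay above 1 for 1 member and below 1 for 2, where the shares over all measured genes were 23.8% and 21.6%. The ratios of the 6 ran from 0.864 to 2.05. In bulk RNA, fewer cells with a transcript and less of it per cell cannot be told apart.

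**Figure D1:**
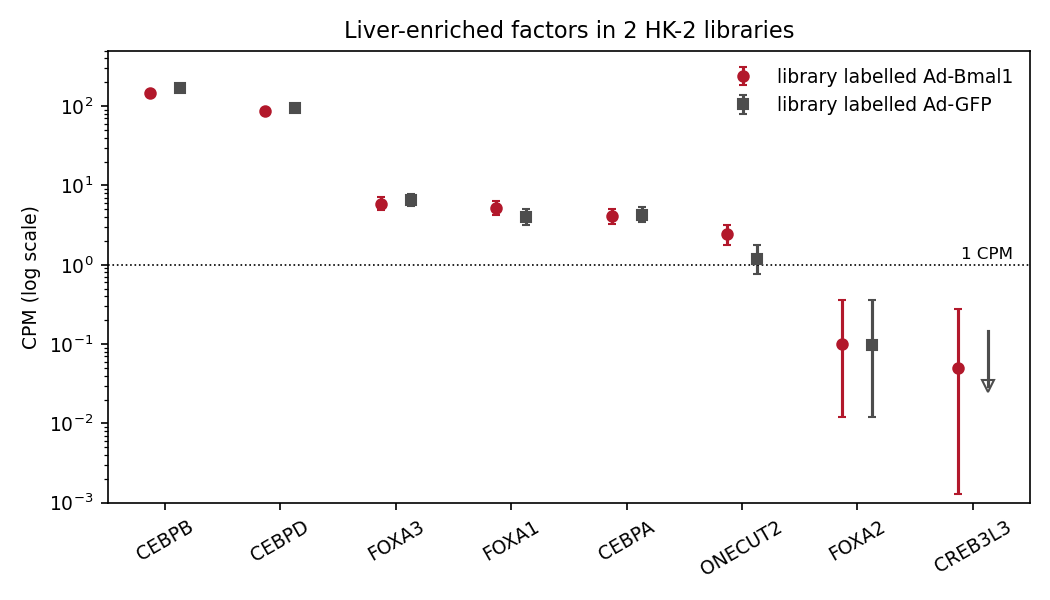
CPM (log axis) of the 8 factors in the library labelled Ad-Bmal1 (red circles) and the library labelled Ad-GFP (grey squares), with exact 95% Poisson intervals. The arrow marks a count of 0 and starts at the limit of 3 counts that a count of 0 allows; CEBPB and CEBPD lie near 100 CPM and FOXA2 and CREB3L3 lie under the dotted line at 1 CPM.

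Among the forkhead members FOXA1 (ENSG00000129514, chromosome 14, 37589984 to 37596059, GRCh38), which also acts with steroid receptors in breast and prostate, had 104 counts in the library labelled Ad-Bmal1 and 82 in the library labelled Ad-GFP. As CPM these are 5.25 and 4.04, a ratio of 1.30 with an interval that included 1 (0.962 to 1.76). FOXA3 (ENSG00000170608, chromosome 19, 45863989 to 45873797), the paralog most abundant in adult liver, had 117 counts in the library labelled Ad-Bmal1 and 133 in the library labelled Ad-GFP. Its ratio was 0.900 (0.696 to 1.16). At this depth no difference in FOXA1 or FOXA3 was detectable.

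FOXA2 (ENSG00000125798, chromosome 20, 22581005 to 22585455), required for endoderm and for bile acid and lipid handling in liver, had 2 counts in each library. No ratio is given at this level. Over 3257 of its bases FOXA2 overlaps a second coding gene annotated on the same strand, AL121722.1, which was listed at 0 in both libraries. The level of FOXA2 is uncertain, because the handling of reads shared by overlapping genes is not given in the sources used here. FOXA1 overlaps TTC6, on the other strand, by 213 bases, and TTC6 reached 5 counts in Ad-Bmal1 and 4 in Ad-GFP.

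Summed, the 3 FOXA genes had 223 counts in the library labelled Ad-Bmal1 and 217 in the library labelled Ad-GFP, a ratio of 1.05 (0.868 to 1.27). FOXA1 held 46.6% of the FOXA counts (exact binomial interval 39.9 to 53.4) in the library labelled Ad-Bmal1 and 37.8% (31.3 to 44.6) in the library labelled Ad-GFP. FOXA3 held 52.5% (45.7 to 59.2) and 61.3% (54.5 to 67.8) in the same order of libraries. The count ratio of FOXA1 to FOXA3 was 0.889 in the library labelled Ad-Bmal1 and 0.617 in the library labelled Ad-GFP. These differ by a factor of 1.44, with an interval (0.967 to 2.15) that included 1 and does not depend on the scaling of the libraries.

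The leucine zipper members CEBPB and CEBPD were the abundant ones. CEBPB (ENSG00000172216, chromosome 20, 50190734 to 50192689, a single exon) had 2930 counts in the library labelled Ad-Bmal1 and 3470 in the library labelled Ad-GFP. At 148 and 171 CPM its ratio was 0.864 (0.822 to 0.908), the lowest of the 6, and short of the size rule. CEBPD (ENSG00000221869, chromosome 8, a single exon), which also takes part in cell cycle arrest and innate immune signalling, had 1742 counts in the library labelled Ad-Bmal1 and 1916 in the library labelled Ad-GFP. Its ratio was 0.930 (0.871 to 0.993). With a trend on transcript length removed the CEBPD interval included 1 (0.975, 0.913 to 1.04). Both intervals lay below 1 otherwise, but 96.2% of the 5658 genes that summed to at least 1000 counts differed by less than 1.5-fold, and the spread between cultures is unknown.

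CEBPA (ENSG00000245848, chromosome 19, 33299934 to 33302564, a single exon) had 81 counts in the library labelled Ad-Bmal1 and 87 in the library labelled Ad-GFP, a ratio of 0.953 (0.695 to 1.30). The divergent noncoding gene CEBPA-DT, which starts 292 bases from CEBPA, had 14 counts in the library labelled Ad-Bmal1 and 20 in the library labelled Ad-GFP (0.716, 0.335 to 1.49). Antisense genes overlap CEBPA over 1235 and 662 bases and were listed at 0 in both libraries. CEBPB-AS1 overlaps CEBPB over 765 bases on the other strand, with 0 counts in the library labelled Ad-Bmal1 and 7 in the library labelled Ad-GFP. Reads of these genes and of their antisense partners cannot be told apart, because no strand setting is stated.

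CEBPG, a C/EBP protein that lacks a classical activation domain, went the other way from CEBPB. It had 507 counts in the library labelled Ad-Bmal1 and 446 in the library labelled Ad-GFP, a ratio of 1.16 (1.02 to 1.32). The count ratio of CEBPB to CEBPG was 5.78 in the library labelled Ad-Bmal1 and 7.78 in the library labelled Ad-GFP, which differ by a factor of 0.743 (0.646 to 0.853). That of CEBPD to CEBPG was 3.44 and 4.30 in the same order, a factor of 0.800 (0.691 to 0.925). CEBPB and CEBPD did not differ from each other beyond counting error, with a factor of 0.929 (0.855 to 1.01). As shares of the counts of the 4 genes, CEBPG held 9.64% (8.85 to 10.5) in the library labelled Ad-Bmal1 and 7.54% (6.88 to 8.24) in the library labelled Ad-GFP. CEBPB held 55.7% (54.3 to 57.1) and 58.6% (57.4 to 59.9), and CEBPA 1.54% (1.22 to 1.91) and 1.47% (1.18 to 1.81). Counts per gene cannot separate the long and short proteins made from the CEBPA and CEBPB transcripts.

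ONECUT2 (ENSG00000119547, chromosome 18, 57435685 to 57491297) was the member that met the size rule. It had 48 counts in the library labelled Ad-Bmal1 and 24 in the library labelled Ad-GFP, as CPM 2.42 and 1.18, a ratio of 2.05 (1.23 to 3.49). Its ratio was under 2-fold with total counts (1.998), with a prior count of 2 (1.97) and without the trend on transcript length (1.71). Among the 1343 measured genes with 50 to 100 counts in all, 3.28% met the rule as higher. Its annotated transcript is long, 16121 bases, so these counts are spread thinly. Its paralogs ONECUT1 and ONECUT3 had 2 counts in each library and 0 counts in either.

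CREB3L3 (ENSG00000060566, chromosome 19, 4153601 to 4173054) had 1 count in the library labelled Ad-Bmal1 and 0 in the library labelled Ad-GFP. A count of 0 allows up to 0.148 CPM there, for counting error only, and no ratio is given. FOXA2 and CREB3L3, liver-enriched by name, were thus not measured in either library.

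**Figure D2:**
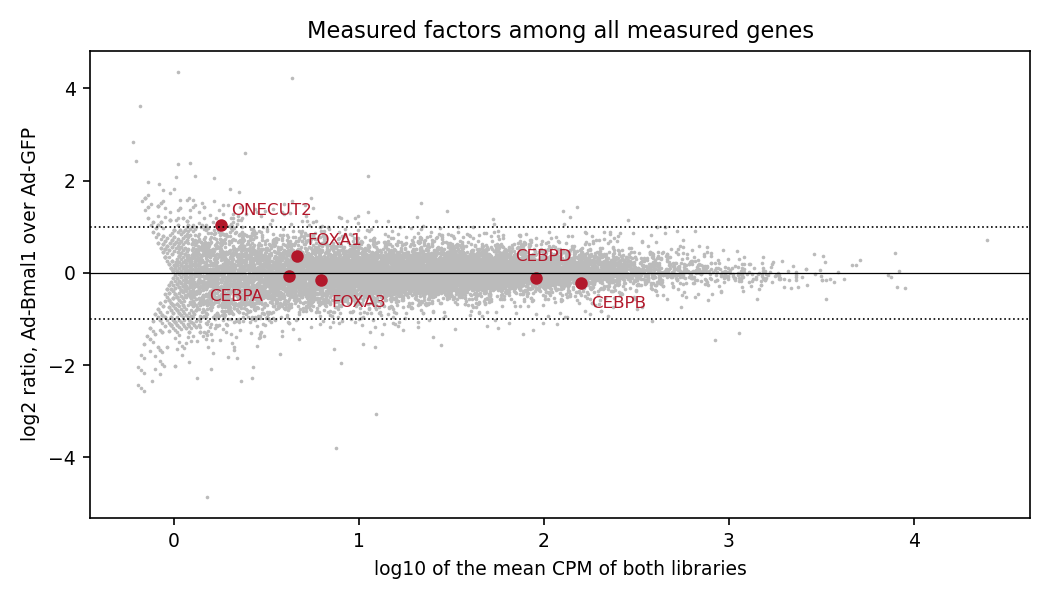
Each point is a measured gene, by log10 of its mean CPM and its log2 ratio of Ad-Bmal1 over Ad-GFP; the 6 measured factors are in red and dotted lines mark 2-fold. ONECUT2, at 1.03 on the log2 scale, lies just past the upper line among genes of low abundance, and the other 5 lie inside the lines.

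Levels were compared between genes per length, as TPM, a count divided by the length of the gene's longest coding transcript and then scaled to the library. In the library labelled Ad-Bmal1 CEBPB came first at 161 TPM (155 to 167), then CEBPD at 85.8 (81.8 to 89.9) and FOXA3 at 6.31 (5.22 to 7.56). FOXA1 at 3.90 (3.19 to 4.72) and CEBPA at 3.30 (2.62 to 4.11) had overlapping intervals and followed. ONECUT2 stood at 0.319 TPM (0.236 to 0.424), FOXA2 at 0.0886 and CREB3L3 at 0.0410, where the interval of FOXA2 (0.0107 to 0.320) overlapped those of ONECUT2 and of CREB3L3 (0.00104 to 0.228).

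In the library labelled Ad-GFP CEBPB stood at 183 TPM (177 to 189), CEBPD at 90.6 (86.6 to 94.8) and FOXA3 at 6.89 (5.77 to 8.16). CEBPA at 3.41 and FOXA1 at 2.95 (2.35 to 3.66) again had overlapping intervals, in the reverse order. By TPM CEBPB ranked 1024 in the library labelled Ad-Bmal1 and 888 in the library labelled Ad-GFP, of 13231 measured genes, and CEBPD ranked 1890 and 1735. ONECUT2 ranked 13059 and 13191, near the bottom. With lengths of all exons combined, CEBPA lay above FOXA1 in both libraries. They stood at 5.18 and 4.40 TPM in the library labelled Ad-Bmal1 and at 5.38 and 3.35 in the library labelled Ad-GFP. By those lengths CEBPB stood at 252 and 289 TPM, CEBPD at 135 and 143 and FOXA3 at 8.99 and 9.87, in the same order. These values lie outside the intervals above, which do not cover the choice of length.

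Among relatives of the members, of 37 other forkhead genes 19 were measured, none higher and 1 lower by the size rule. The shares over all measured genes were 1.13% higher and 1.74% lower. The median log2 ratio of the list was 0.12, or 0.01 with the length trend removed and -0.04 with no filter. The lower one was FOXC2, a factor of mesenchyme and lymphatic vessels, with 43 counts in the library labelled Ad-Bmal1 and 92 in the library labelled Ad-GFP (0.478, 0.325 to 0.694). Its chromosome 16 neighbour FOXL1 had 219 and 406 counts in the same order (0.552, 0.466 to 0.652). The most abundant were FOXK1, a repressor of autophagy genes, at 1.11 (1.05 to 1.16, but below 1 with the length trend removed) and FOXM1, a driver of mitotic genes, at 1.22 (1.15 to 1.30).

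Of 13 bZIP partners and other C/EBP genes 10 were measured, with a list median of 0.10. Of these DBP met the size rule as higher, as did 1.13% of all measured genes. DBP, a clock-controlled factor that binds the D-box, had 216 counts in the library labelled Ad-Bmal1 and 95 in the library labelled Ad-GFP (2.33, 1.82 to 2.99). Its relative TEF had 872 and 593 counts in the same order (interval 1.35 to 1.67). HLF, of the same list, had 22 and 23 counts in that order, with an interval that included 1 (0.979, 0.520 to 1.84). ATF4, the stress factor that can pair with C/EBP proteins, was at 0.962 (0.937 to 0.987, but 1.01 with the length trend removed).

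All 9 other genes of the CREB3 family and its processing were measured and none met the size rule, with a median of 0.10. MBTPS1, the Golgi protease that makes the first cut in such factors, was at 1.11 (1.06 to 1.16) and its substrate ATF6B at 1.02 (0.966 to 1.07, but 0.994 under total counts). CREB3L1, which acts in matrix secretion, had 2260 counts in the library labelled Ad-Bmal1 and 1719 in the library labelled Ad-GFP (1.35, 1.26 to 1.43). CREB3L4 was at 0.821 (0.675 to 0.998) and ATF6 at 0.870 (0.775 to 0.976). Over the 7 scalings CREB3L4 reached 0.871, so whether its interval holds 1 depends on the scaling. Of the 9 intervals 3 lay above 1 and 2 below, against 23.8% and 21.6% over all measured genes. Among cut homeobox genes other than ONECUT2, 2 of 6 were measured and none met the size rule. CUX1, a widely expressed factor, was at 1.13 (1.06 to 1.21, but 0.957 with the length trend removed). Of 14 other liver-enriched factors 7 were measured and none met the size rule, with a median of 0.27, or 0.00 over those that reached 10 CPM. RXRA, the common partner of nuclear receptors, was at 0.939 (0.870 to 1.01).

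**Figure D3:**
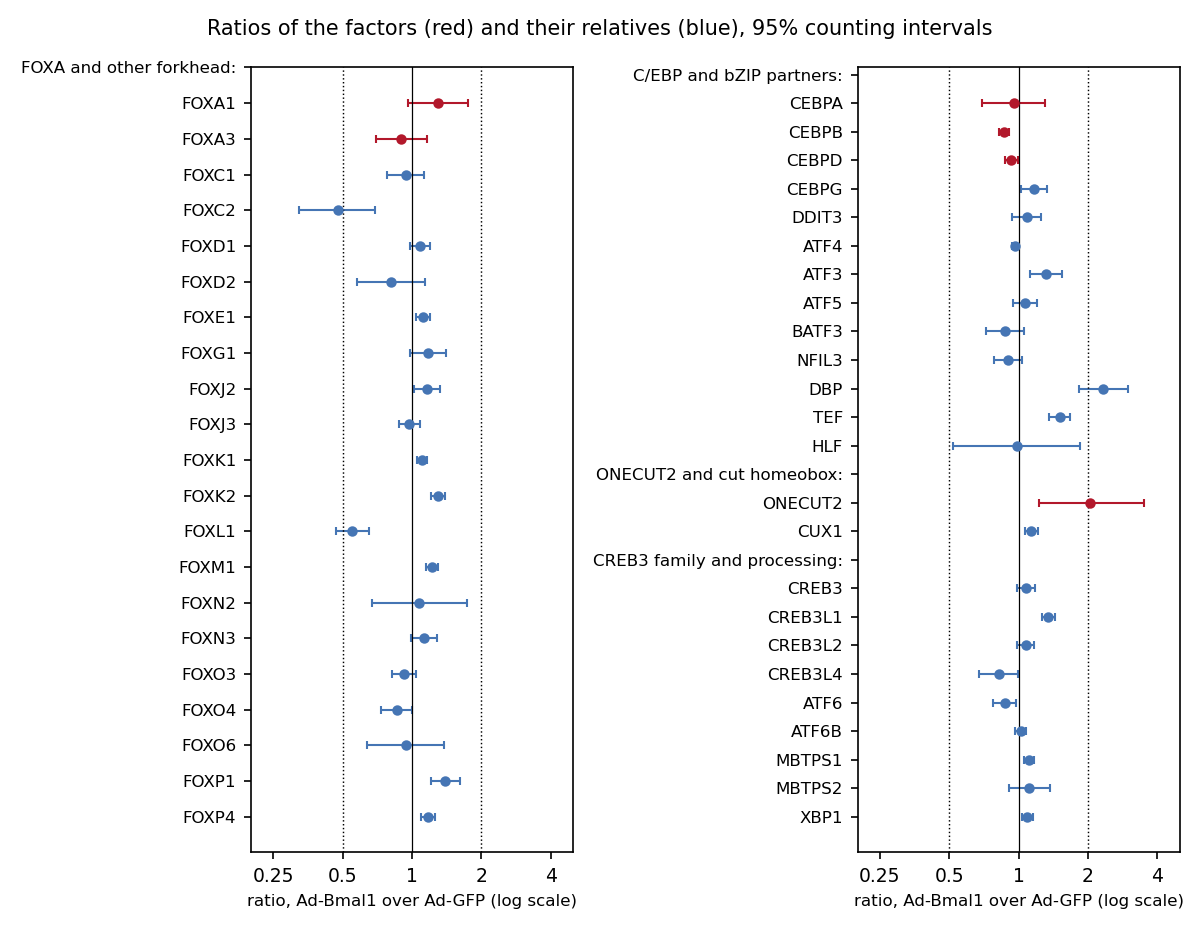
Ratio of Ad-Bmal1 over Ad-GFP (log axis) with 95% counting intervals for the measured factors (red) and measured genes of their families and partners (blue); dotted lines mark 2-fold. FOXC2 at 0.478 lies past the lower line and DBP at 2.33 and ONECUT2 at 2.05 past the upper one.

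Of 19 genes that feed CEBPB and CEBPD 17 were measured and none met the size rule. Their median log2 ratio was -0.06, with 3 intervals above 1 and 4 below. Over all measured genes these shares were 23.8% above and 21.6% below. JAK1, the kinase under the interleukin-6 receptor family, was at 1.04 (1.01 to 1.08), and LIF, a cytokine of that family, at 0.978 (0.943 to 1.01). Interleukin-6 itself, IL6, had 5056 counts in the library labelled Ad-Bmal1 and 4979 in the library labelled Ad-GFP (1.04, 0.999 to 1.08). SOCS3, the feedback inhibitor of the pathway, was at 0.921 (0.856 to 0.991). TRIB1 and COP1, which together mark CEBPA protein for breakdown, were at 0.956 (0.880 to 1.04) and 0.895 (0.802 to 0.999). TRIB2, which acts on CEBPA in the same way, had 86 counts in the library labelled Ad-Bmal1 and 54 in the library labelled Ad-GFP (1.63, 1.15 to 2.33). Over the 7 scalings SOCS3 ran from 0.899 to 0.941, COP1 from 0.874 to 0.901, JAK1 from 1.00 to 1.04 and IL6 from 1.01 to 1.11. Whether an interval with a bound this near 1 holds 1 thus depends on the scaling.

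Among 15 C/EBP targets of inflammation and differentiation 9 were measured, with 2 lower and none higher by the size rule. Over all measured genes that rule picked 1.74% as lower and 1.13% as higher. The lower ones were CSF3, a growth factor of granulocytes, with 18 counts in the library labelled Ad-Bmal1 and 89 in the library labelled Ad-GFP (0.207, 0.117 to 0.346), and MMP1, a collagenase. MMP1 had 881 and 2251 counts in the same order (0.400, 0.370 to 0.433). CSF3, at 0.908 CPM in the library labelled Ad-Bmal1, was measured through the library labelled Ad-GFP alone. It thus had to be lower in the library labelled Ad-Bmal1. CXCL8, a neutrophil chemokine, had 22586 counts in the library labelled Ad-Bmal1 and 34443 in the library labelled Ad-GFP (0.671, 0.660 to 0.682), and LCN2, an iron-trapping protein of injured tubules, was at 0.618 (0.590 to 0.648). IGFBP3 went the other way, with 8367 counts in the library labelled Ad-Bmal1 and 5304 in the library labelled Ad-GFP (1.61, 1.56 to 1.67). Of the 9 intervals 2 lay above 1 and 4 below, against 23.8% and 21.6% over all measured genes. The list median of -0.06 lay near that of all genes, and the list shares IL6 with the inputs.

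Of 22 hepatocyte targets of FOXA and C/EBP 8 were measured, with 2 higher by the size rule and none lower, at a median of -0.07, which turned to 0.01 under 1 of 7 scalings. The higher ones were ALB, serum albumin, with 165 counts in the library labelled Ad-Bmal1 and 9 in the library labelled Ad-GFP, and HP, haptoglobin, with 40 and 2. Both were measured through the library labelled Ad-Bmal1 alone, and so had to be higher in it. The abundant targets lay on the other side of 1. SERPINA1, the inhibitor of neutrophil elastase, was at 0.855 (0.823 to 0.888) and SAA1, an acute-phase protein, at 0.673 (0.619 to 0.731), with 0.683 (0.631 to 0.739) for the summed counts of SAA1 and its close paralog SAA2.

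Counting the unmeasured genes too, 7 of the 22 hepatocyte targets had intervals above 1, each with less than 1 CPM in Ad-GFP, and 2 had intervals below 1. Of all 22827 genes with a count 14.4% had intervals above 1 and 13.3% below. TTR, the thyroxine carrier, had 9 counts in the library labelled Ad-Bmal1 and 0 in the library labelled Ad-GFP. APOA1, the main protein of high-density lipoprotein, had 15 and 0 in the same order, and TF, transferrin, 14 and 1. Beside ONECUT2, the 10 hepatocyte markers summed to 248 counts in the library labelled Ad-Bmal1 and 63 in the library labelled Ad-GFP, or 83 and 54 without ALB. Of these markers 8 had the higher CPM in the library labelled Ad-Bmal1, FGB with 21 counts in each library among them, and 2 in the library labelled Ad-GFP, with 5 intervals above 1 and 1 below, that of ASGR1, a hepatocyte lectin, at 6 and 26 counts in the same order. Their part in the ONECUT2 difference was not tested.

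Of 10 targets of CREB3L3 2 were measured, the fatty acid desaturases FADS1 and FADS2. FADS1 had 2774 counts in the library labelled Ad-Bmal1 and 2441 in the library labelled Ad-GFP. FADS2 was at 1.21 (1.01 to 1.44), or 1.18 at the lowest of the 7 scalings, so whether its interval holds 1 depends on the scaling. FGF21, APOC2, APOA5, HAMP and APCS were at 0 in both libraries. APOA4 had 1 count and CRP 4 counts in the library labelled Ad-Bmal1 and both were at 0 in the library labelled Ad-GFP. CIDEC, a lipid droplet protein, had 0 counts in the library labelled Ad-Bmal1 and 4 in the library labelled Ad-GFP.

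**Figure D4:**
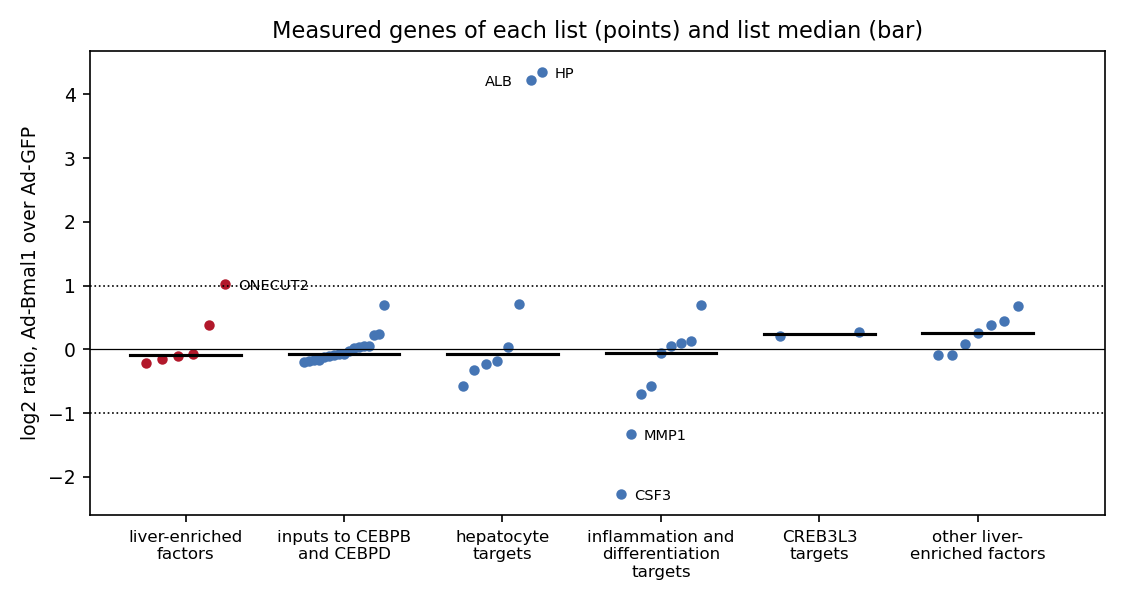
Log2 ratio of Ad-Bmal1 over Ad-GFP for each measured gene of 6 lists (points) with the list median (bar); dotted lines mark 2-fold and genes past them are named. The bars lie between -0.09 and 0.27, while ALB and HP lie above 4 and CSF3 below -2.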

How the data were processed

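RNA was measured in 2 libraries, 1 per group, grouped by sample title. The authors deposited whole-number counts for each Ensembl gene, without normalisation as far as the values show. Per the submitters' processing notes the aligner was HISAT2 and the build GRCh38 (hg38). For the counter, its strand setting and its annotation, nothing is given in the sources used here. Libraries held 20780 (Ad-Bmal1) and 20709 (Ad-GFP) genes with a count, and 1 CPM was worth 19.8 and 20.3 counts.

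Scaling was by TMM (edgeR 4.0.16, R 4.3.3; factors 0.988 for Ad-Bmal1 and 1.01 for Ad-GFP). Other steps used Python 3.11.15 with scipy 1.17.1. With a single library per group the quasi-likelihood test of edgeR could not be fitted. Ratio intervals are exact conditional binomial (Clopper-Pearson) and factors between 2 genes are conditional odds ratios. Intervals cover counting error only, since each group had 1 library. PCR copies carry no molecular identifier, and the intervals may be too narrow where copies were counted. Zeros were given a floor of 3 counts, and no ratio was formed with both libraries at or under it. Steps were tested on simulated counts.

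Positions and transcript lengths are from GENCODE 29 on GRCh38, which held 99.5% of gene identifiers. Named genes are all members, BMAL1 and, per list, up to 4 that met the size rule and the 2 highest in mean CPM. Values of 3 genes that this rule names are not reported here. CEBPG was fixed with the C/EBP shares. Other genes named, and the factors between pairs of genes, were chosen after values were seen. The members and lists were chosen with earlier results of these data known. Protein sequences were not used here.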

Additional observations from a re-analysis of the deposited data

How the results depend on the processing

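TMM was set beside size factors of DESeq2 1.42.0, upper quartiles, total counts, and totals that leave out mitochondrial genes and the top 20 genes. A thinned deeper library, and ratios with a trend on transcript length removed, were set beside it as well. Both libraries were of nearly equal depth, so the thinning took few counts and could change little. The filter was also dropped or set at 10 CPM. The size rule was also run at 1.5-fold, at 4-fold and with the whole interval past 2-fold. A prior count of 2 moved no member ratio outside its interval but put ONECUT2 at 1.97. Lengths of all exons and C/EBP shares without CEBPG were tried too. Over the 7 scalings no measured member crossed a ratio of 1, with FOXA1 at 1.27 to 1.32, FOXA3 at 0.879 to 0.949, CEBPA at 0.930 to 0.978, CEBPB at 0.844 to 0.912, CEBPD at 0.908 to 0.975 and ONECUT2 at 1.71 to 2.05. The CEBPB value of 0.912 came with the length trend removed and lay outside its counting interval. With the length trend removed, an alternative added after seeing the data for this result, the factor of CEBPB to CEBPG was 0.798 and that of CEBPD to CEBPG 0.853, each within its interval. The member median ran from -0.12 to -0.03. The number of members higher by the size rule was 0 under total counts, with the length trend removed, at 10 CPM, at 4-fold and with the whole interval past 2-fold, in each case through the loss of ONECUT2. The median of the hepatocyte targets was 0.01 at one end of the scalings and -0.11 at the other. The 0.01 came with the totals that leave out the top 20 genes, through the entry of FGA among the measured targets. With no filter, which adds genes of few counts, the median was 0.94. Depth limits FOXA2 and CREB3L3, which have no ratio. No replicate could be left out with 1 library per group. No paired analysis was possible because each group had 1 library.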
